A study of Homo sapiens with 4 samples.

Results

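The genes described here are 46 enzymes of nucleotide synthesis and of the folate-linked one-carbon pathway that feeds it, chosen by name as a functional module and looked up by symbol among the 18885 genes listed for MV4-11 cells. Of these, 45 were found, and CTPS2 was not analysed here. The choice was made with earlier results of these data known, so the counts below describe the module and are not an independent test. MV4-11 is a human acute myeloid leukemia (AML) cell line. Its RNA was sequenced in 4 libraries, 2 from control cells (NC) and 2 from cells with ANP32B knocked down (sh-ANP32B), to ask which genes move when ANP32B, a nuclear histone chaperone linked to proliferation, is reduced. All 4 libraries came from this single line, with no drug treatment named in the labels. For the NC cells the labels state no shRNA, while the study's methods name an sh-NC hairpin and puromycin selection of the infected cells, so effects of infection and of ANP32B loss cannot be told apart if the control cells carried none. The knockdown columns carry the mark S3, and the hairpin behind them is not named in the labels. The study states in general that its experiments were repeated independently, but nothing says that these replicates came from separate cultures, so each p-value measures the spread between these libraries, which may be technical.

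The deposited values are TPM, a transcript level corrected for gene length and brought to a common total in each library, and they hold no record of read number, so the depth of the libraries is unknown. ANP32B itself had 358 and 364 TPM in NC and 54.1 and 49.3 TPM in sh-ANP32B, which left 14.3% of the control mean. Mitochondrial genes held 15.4% to 15.9% of the TPM in NC and 17.4% to 17.6% in sh-ANP32B. As a check of the label, 6 of 7 myeloid leukemia markers fixed for this purpose were listed, and 7 of 9 markers of other cell types (T cell, B cell, red cell, platelet, epithelium and fibroblast genes) were not among the genes used. Of those listed, PECAM1, which monocytes also express, had 20.7 to 20.8 TPM in NC and 51.0 to 51.9 TPM in sh-ANP32B. Differences were tested with limma on log2(TPM + 1), and all fold changes are sh-ANP32B against NC on that log2 scale. A gene was called when its Benjamini-Hochberg adjusted p over the 16937 genes tested was below 0.05 and its log2 fold change was beyond 0.5. In bulk RNA, fewer cells of a kind and less RNA per cell cannot be told apart, so a lower TPM here can mean either. Because the total is common to all libraries, a TPM can also fall when other transcripts rise.

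Nucleotides are built along connected routes. Serine, made from a glycolytic intermediate by PHGDH, PSAT1 and PSPH, gives its carbon to tetrahydrofolate through SHMT1 and SHMT2, and the MTHFD enzymes turn that carbon into the formyl groups used in the purine ring and the methylene group used by TYMS for thymidylate. Purines are assembled on phosphoribosyl pyrophosphate, pyrimidines as a free ring that is then joined to it, and ribonucleotide reductase converts the resulting ribonucleotides to the precursors of DNA. Salvage enzymes recycle bases and nucleosides in parallel, and several of these enzymes, such as TYMS and ribonucleotide reductase, are targets of cancer drugs.

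After ANP32B knockdown, 30 of the 45 genes were called lower (66.7%) and 4 were called higher (8.89%). Over all genes tested, the called shares were 10.1% for lower and 17.9% for higher. The lower group spanned the routes from serine to purine and thymidylate, while the higher group held ADA2, SAMHD1, TK2 and CMPK1. Among the other 11 genes, 7 had an adjusted p below 0.05 within the fold limit, all with lower values, and 4 (APRT, DCTD, RRM2B and IMPDH1) had an adjusted p above it. Without the fold limit, 37 of the 45 genes were lower and 4 higher, beside 19.7% and 26.0% of all genes tested. Membership near the p limit depended on the setting. The adjusted p of IMPDH1 was 0.0448 with the replicate block, and that of APRT was 0.0248 with median-of-ratios scaling. That of ADSS2, below the limit as deposited, was 0.00718 with median-of-ratios scaling and 0.127 without the trend in the limma fit. FPGS, PSPH and PNP, also below the limit as deposited, had 0.0947, 0.0564 and 0.0723 without the trend. The median log2 fold change was -0.64 for the 45 genes and 0.08 for all genes tested, whose 25th and 75th percentiles were -0.26 and 0.45. The libraries of the groups did not overlap for 43 of the 45 genes, beside 74.7% of all genes tested (32.1% lower and 42.5% higher in sh-ANP32B). The summed TPM of the 45 genes was 6593 and 6599 in NC and 4585 and 4524 in sh-ANP32B, that is, 69.0% of the control mean. All 45 genes passed the filter on low values.

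**Figure D1:**
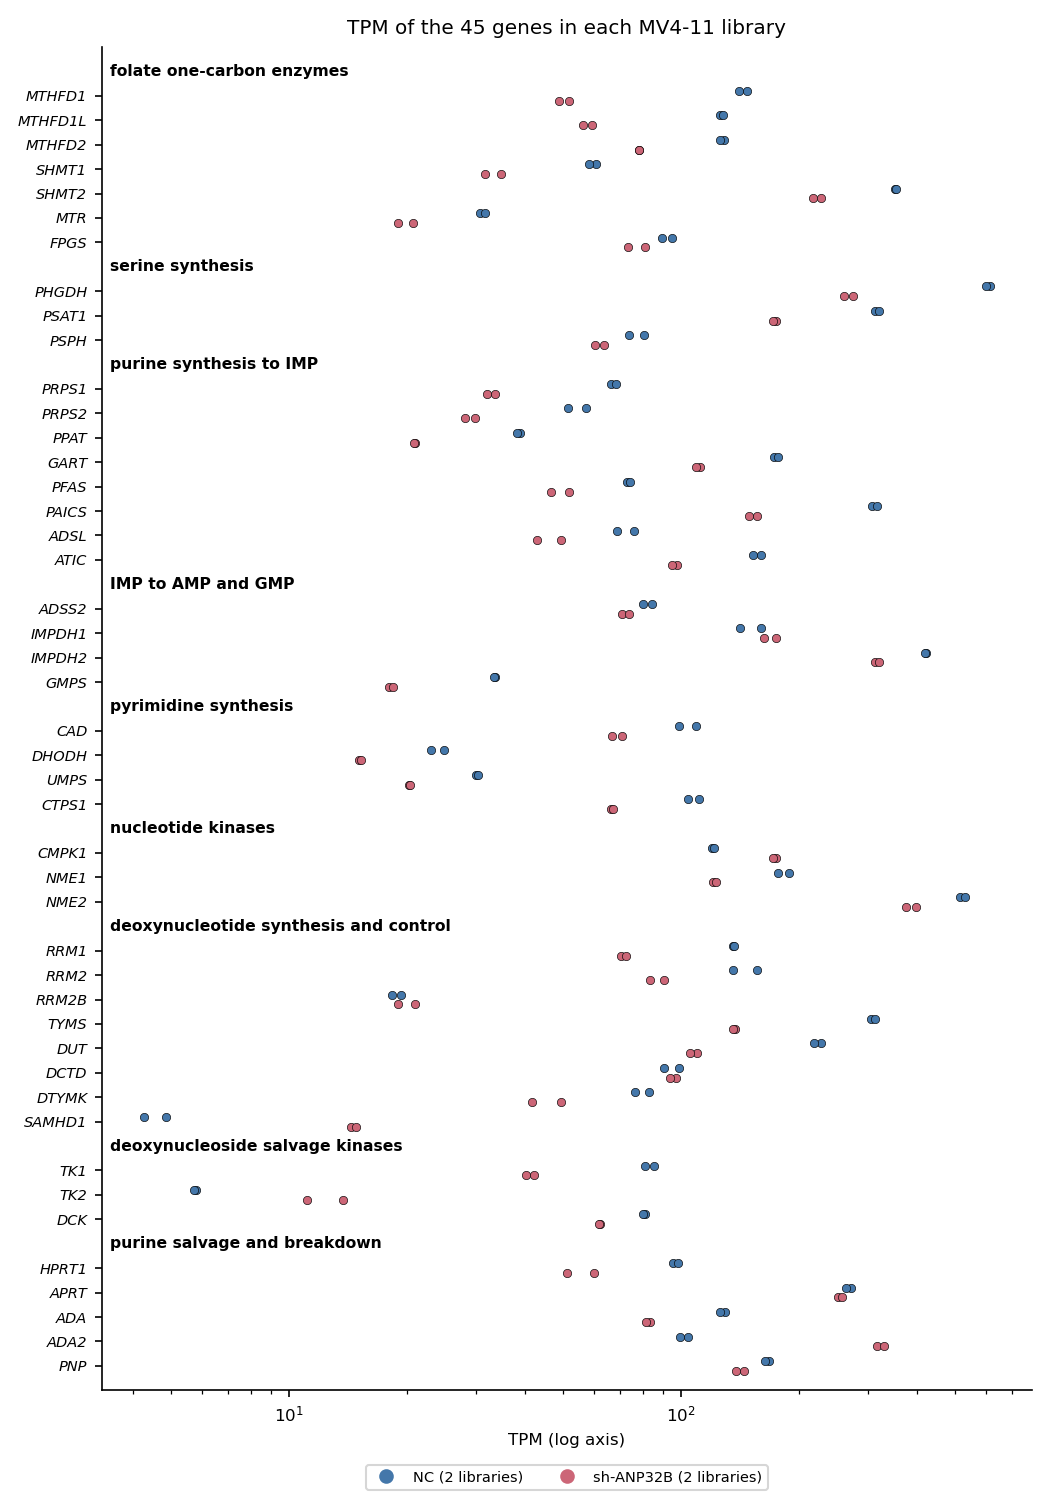
TPM of the 45 genes in the 2 NC and 2 sh-ANP32B libraries, on a log axis, grouped by role, each point being 1 library. The sh-ANP32B points lie to the left of the NC points for most genes, and to the right for ADA2, SAMHD1, TK2, CMPK1 and IMPDH1.

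**Figure D2:**
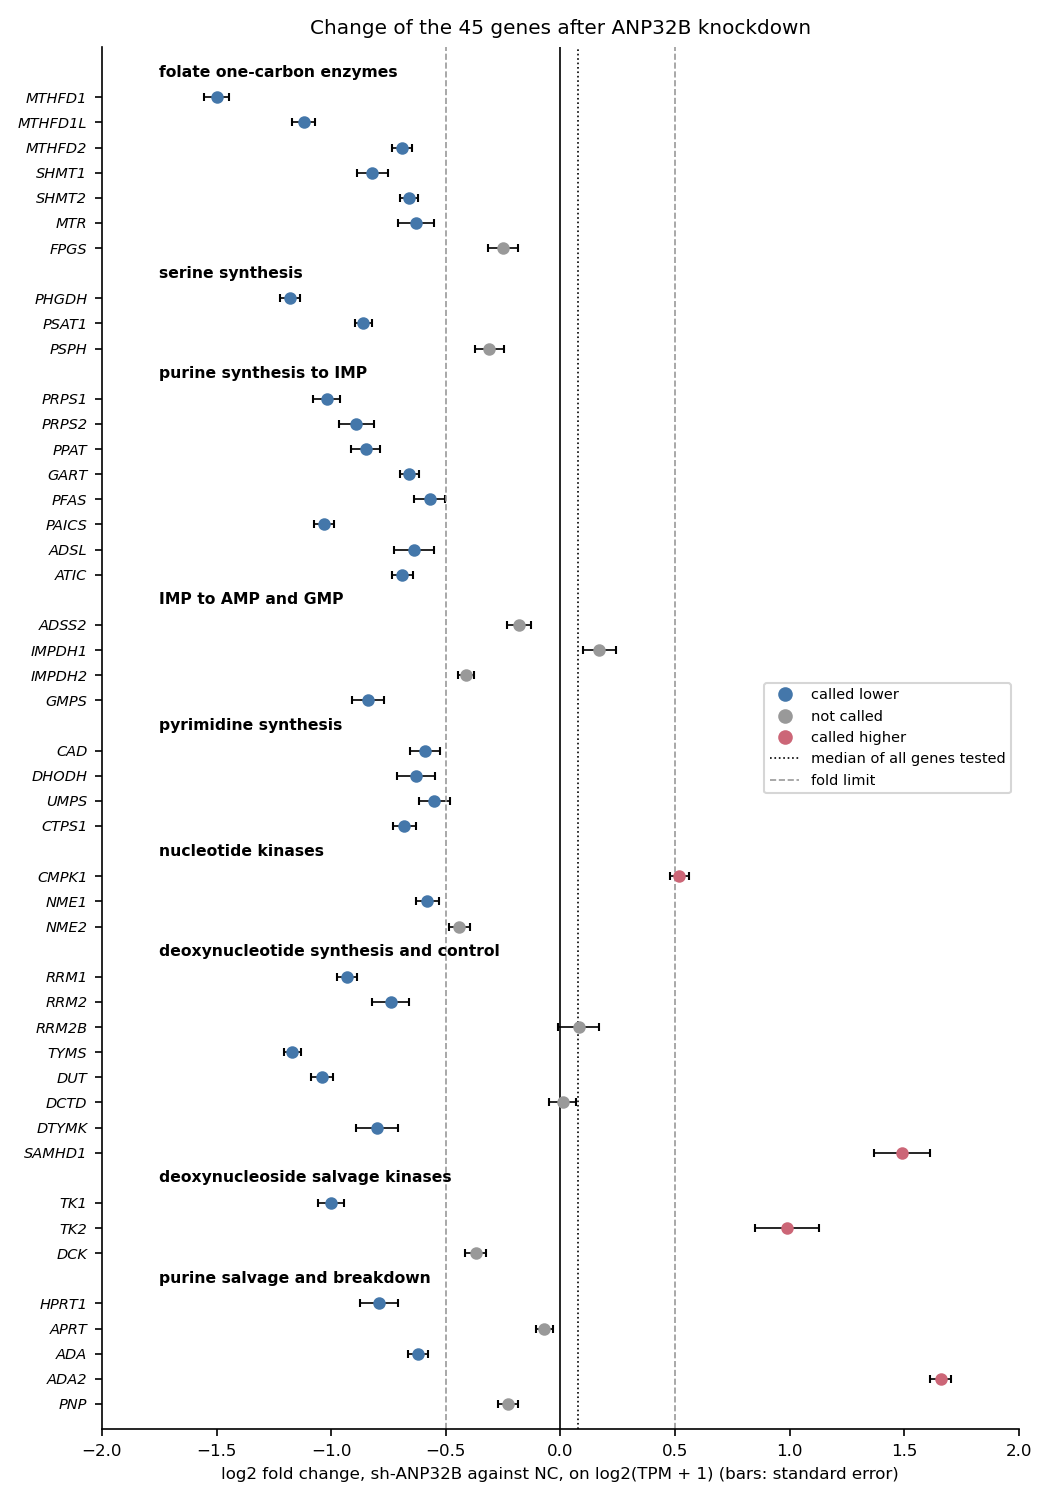
Log2 fold change of each gene, sh-ANP32B against NC, with its standard error, colored by call, with dashed lines at the fold limit of 0.5 and a dotted line at the median of all genes tested. The values run from -1.50 for MTHFD1 to 1.66 for ADA2.

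The folate enzymes held the gene with the lowest fold change of the module. Of these 7 genes, 6 were called lower, beside 10.1% of all genes tested. MTHFD1 (ENSG00000100714), the cytosolic trifunctional enzyme that interconverts folate-bound carbon units, had 140.4 and 147 TPM in NC and 51.7 and 48.7 TPM in sh-ANP32B. This left 34.9% of the control mean, with a log2 fold change of -1.50 (adjusted p = 8.67e-05, standard error 0.054). MTHFD1L, its mitochondrial counterpart that releases formate, had 126 and 128 TPM against 59.4 and 56.2 TPM (log2 fold change -1.12, adjusted p = 1.17e-04). MTHFD2, the mitochondrial dehydrogenase of the same route, had 129 and 125 TPM against 78.3 and 78.0 TPM (-0.69, adjusted p = 2.49e-04). Thus the cytosolic and the mitochondrial arm were both lower, with no overlap between the groups. Of all genes tested, 32.1% were lower in sh-ANP32B without overlap. The serine hydroxymethyltransferases followed the same direction, since SHMT1, the cytosolic form, had 60.7 and 58.3 TPM against 31.7 and 34.7 TPM (-0.82), and SHMT2, the mitochondrial form, had 351 and 354 TPM against 217 and 228 TPM (-0.66). MTR, methionine synthase, which links folate to the methionine cycle, had 30.8 and 31.5 TPM against 20.7 and 18.9 TPM (-0.63). FPGS, which adds the glutamate tail that keeps folates in the cell, stayed within the fold limit, with 94.6 and 89.2 TPM against 80.8 and 73.3 TPM (-0.25, adjusted p = 0.0260). MTHFD1 shares 1556 exonic bases with ENSG00000272909 on the opposite strand, which had 2.21 to 4.03 TPM over the 4 libraries. MTHFD2 shares 1324 with SLC4A5, also on the opposite strand, which had 0.551 and 0.313 TPM in NC and 2.30 and 2.20 TPM in sh-ANP32B, and the annotation names 7 pseudogenes of MTHFD2, with which its reads could be mixed.

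Serine synthesis was the route with the lowest summed TPM relative to control. Its 3 genes summed to 1006 and 991 TPM in NC and to 514 and 492 TPM in sh-ANP32B, or 50.4% of the control mean. PHGDH, phosphoglycerate dehydrogenase, which opens the pathway, was the most abundant gene of the whole module in NC. It had 613 and 599 TPM there and 275 and 260.0 TPM in sh-ANP32B, a log2 fold change of -1.18 (adjusted p = 8.53e-05, standard error 0.042). PSAT1, the aminotransferase of the next step, had 312 and 319 TPM against 175 and 172 TPM (-0.86, adjusted p = 1.15e-04). PSPH, the phosphatase of the last step, was not called, with 80.4 and 73.7 TPM against 63.7 and 60.2 TPM (-0.31, adjusted p = 0.0121).

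**Figure D3:**
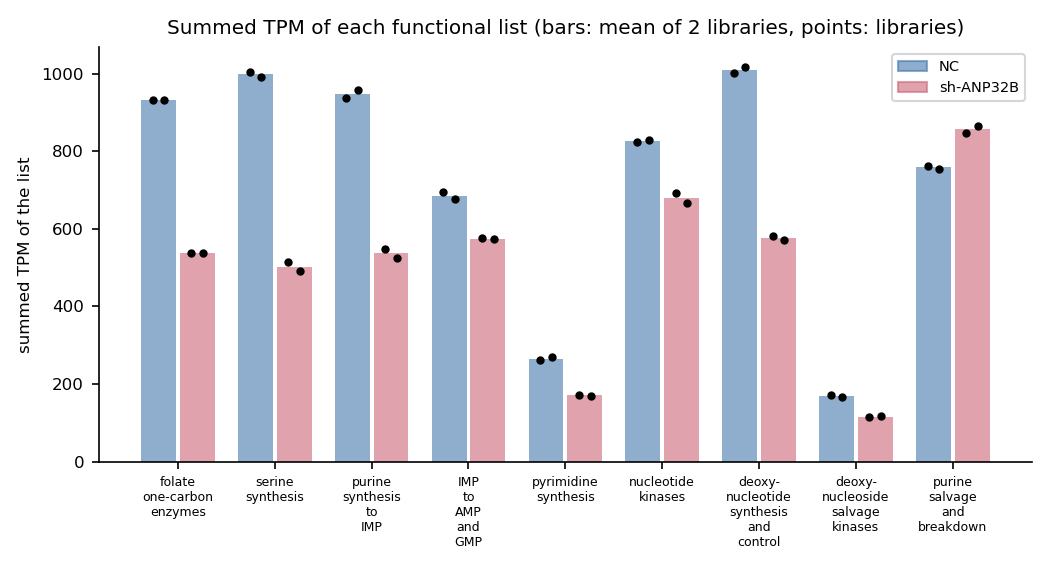
Summed TPM of the genes in each of 9 functional lists, with bars for the mean of 2 libraries and points for single libraries, on an axis that starts at 0. Purine salvage and breakdown was the list whose sum was higher in sh-ANP32B, at 113% of the control mean, with ADA2 higher, the other 4 genes of the list at lower values and a list median log2 fold change of -0.23.

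In purine synthesis, all 8 genes from ribose phosphate to inosine monophosphate (IMP) were called lower, beside 10.1% of all genes. PRPS1 and PRPS2 make phosphoribosyl pyrophosphate, the sugar on which the ring is built. PRPS1 had 66.3 and 68.2 TPM in NC and 33.4 and 32.0 TPM in sh-ANP32B (-1.02, adjusted p = 1.96e-04), and PRPS2 had 51.5 and 57.2 TPM against 28.1 and 29.8 TPM (-0.89, adjusted p = 5.70e-04). PPAT, which commits the pathway to purines, had 38.8 and 38.2 TPM against 20.9 and 20.8 TPM (-0.85, adjusted p = 3.95e-04). PAICS, which carries out later ring-building steps, had 308 and 317 TPM against 156 and 149 TPM (-1.03, adjusted p = 1.06e-04), and thus was the most abundant of the 8 in both groups. The annotation names 7 pseudogenes of PAICS. Among the remaining steps, GART, a trifunctional enzyme that uses formyl-folate, had 172 and 177 TPM against 111 and 109 TPM (-0.66). ATIC, which closes the ring with a further formyl group, had 159.6 and 152 TPM against 97.7 and 95.0 TPM (-0.69). ADSL, adenylosuccinate lyase, which acts both here and in the step to AMP, had 68.6 and 75.7 TPM against 49.3 and 42.9 TPM (-0.64, adjusted p = 0.00288). It shares 1344 exonic bases on the same strand with ENSG00000284431, a coding gene that was not among the genes used. PFAS, the amidotransferase of the route, changed least, with 72.7 and 74.1 TPM against 51.8 and 46.5 TPM (-0.57, adjusted p = 0.00164). Its call was lost without the second sh-ANP32B library, where the log2 fold change reached only -0.50.

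PPAT and PAICS lie head to head on chromosome 4 and are read in opposite directions. On hg38, the annotated PPAT gene ends its 5′ side at 56435615 on the minus strand and PAICS begins at 56435741 on the plus strand, with 125 bases between them. The sequence between these starts is shown because both genes fell together (minus strand, PPAT direction, 5′ to 3′ reading towards PPAT, chr4:56435616-56435740, RefSeq, GRCh38.p14). None of the motif letters described with the deoxynucleotide genes lay in this stretch, although the RefSeq windows of PPAT and of PAICS at this place, which reach into the genes, each held 1 E-box.
PPAT-PAICS: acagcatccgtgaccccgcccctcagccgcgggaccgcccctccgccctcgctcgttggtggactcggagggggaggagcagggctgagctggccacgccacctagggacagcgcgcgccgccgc

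Beyond IMP, the branches to adenine and guanine nucleotides were less uniform, with 1 of 4 genes called. Of all genes tested, 10.1% were called lower and 17.9% higher. GMPS, which makes GMP, was called lower, with 33.4 and 33.3 TPM in NC and 18.0 and 18.4 TPM in sh-ANP32B (-0.84, adjusted p = 5.06e-04). IMPDH2, the IMP dehydrogenase linked to proliferating cells, had 421 and 419 TPM against 312 and 319.5 TPM. Its log2 fold change of -0.41 (adjusted p = 5.70e-04) lay within the limit, and it passed the limit, at -0.51, with median-of-ratios scaling. IMPDH1, the other isozyme, had 159.7 and 141 TPM against 175 and 163 TPM, with an adjusted p of 0.109 from limma. The annotation names 10 pseudogenes of IMPDH1. IMPDH2 shares 1680 exonic bases on the same strand with ENSG00000290315, a coding gene that was not among the genes used. ADSS2, which opens the adenine branch, had 79.9 and 84.4 TPM against 70.8 and 73.7 TPM (-0.18, adjusted p = 0.0381).

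Pyrimidine synthesis was lower at each of the 4 genes analysed, with log2 fold changes from -0.68 to -0.55. CAD, the large protein that carries the first enzymes of the route, had 98.9 and 109 TPM in NC and 70.5 and 66.5 TPM in sh-ANP32B (-0.59, adjusted p = 0.00134). DHODH, the mitochondrial dehydrogenase that follows, had 23.0 and 24.8 TPM against 15.0 and 15.2 TPM (-0.63, adjusted p = 0.00248). UMPS, which forms uridine monophosphate, had 30.0 and 30.3 TPM against 20.2 and 20.4 TPM (-0.55, adjusted p = 0.00199). CTPS1, which aminates UTP to CTP and is known for its role in lymphocyte proliferation, had 111 and 104 TPM against 66.2 and 66.8 TPM (-0.68, adjusted p = 3.94e-04). In none of these genes did the groups overlap, which also held for 74.7% of all genes tested (32.1% lower in sh-ANP32B).

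The kinases that act after these routes did not move together. CMPK1, which phosphorylates UMP and CMP, was higher, with 119.8 and 121 TPM in NC and 174 and 172 TPM in sh-ANP32B (0.52, adjusted p = 4.11e-04, standard error 0.039). It stood just beyond the fold limit and was below it, at 0.42, with median-of-ratios scaling. NME1, a nucleoside diphosphate kinase, was called lower, with 189 and 177 TPM against 121 and 123 TPM (-0.58, adjusted p = 5.36e-04). NME2, its neighbor on chromosome 17, had 515 and 531 TPM against 398 and 374 TPM (-0.44, adjusted p = 9.75e-04) and passed the limit, at -0.54, with the same scaling. A readthrough gene, NME1-NME2, shares 638 exonic bases with NME1 and 603 with NME2 on the same strand and was listed at 196 and 189 TPM against 115 and 122 TPM, so the division of reads among the 3 entries is uncertain.

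Of the 8 genes that make or control deoxynucleotides, 5 were called lower and 1 higher, beside 10.1% and 17.9% of all genes tested. TYMS, thymidylate synthase, had 305 and 312 TPM in NC and 137 and 135 TPM in sh-ANP32B, a log2 fold change of -1.17 (adjusted p = 6.52e-05, standard error 0.037). DUT, which hydrolyses dUTP and so supplies dUMP to TYMS, had 227 and 218 TPM against 109.97 and 105 TPM (-1.04, adjusted p = 1.17e-04). DTYMK, which phosphorylates the product, had 76.5 and 83.0 TPM against 49.2 and 41.8 TPM (-0.80, adjusted p = 0.00153). These 3 consecutive steps of thymidine nucleotide synthesis were therefore lower in both knockdown libraries. In contrast, DCTD, which makes dUMP from dCMP, had 98.8 and 90.4 TPM against 97.2 and 93.6 TPM, with overlapping groups (0.01, adjusted p = 0.884). Ribonucleotide reductase, which joins a large and a small subunit, was represented by 3 genes. RRM1, the large subunit, had 136 and 136 TPM against 70.2 and 72.1 TPM (-0.93, adjusted p = 1.34e-04), and RRM2, the small subunit used in S phase, had 135 and 156 TPM against 83.4 and 90.5 TPM (-0.74, adjusted p = 0.00133). RRM2B, the p53-inducible small subunit, was far less abundant, with 18.3 and 19.3 TPM against 21.0 and 18.9 TPM in overlapping groups (0.08, adjusted p = 0.511). SAMHD1, which breaks down deoxynucleotides, rose from 4.85 and 4.27 TPM in NC to 14.4 and 14.8 TPM in sh-ANP32B (1.49, adjusted p = 4.96e-04, standard error 0.12), 3.21 times the control mean. TYMS shares 967 exonic bases with ENOSF1 on the opposite strand, which had 86.2 and 99.2 TPM against 76.3 and 77.4 TPM, and the annotation names 8 pseudogenes of DUT. SAMHD1 shares 1068 with TLDC2, also on the opposite strand, which had 0.542 and 0.747 TPM against 2.31 and 1.78 TPM.

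Upstream sequence was read for the genes that fell together. RefSeq windows from 250 bases before to 50 bases after a listed start were matched for 40 of the 46 genes, with 61 windows. Some windows overlap within a gene, and those of PPAT and PAICS at their shared start region overlap each other. SHMT2, PSPH, ADSL, IMPDH2, RRM2B and ADA2 had no entry. The letters searched on both strands were CACGTG (the E-box bound by MYC and MAX), those of E2F sites, written as TTCCCGC, as TTCGCGC, as TTGCCGC or as TTGGCGC, the letters CCAAT (the CCAAT box), and further TTTGAA (the CHR element of cell cycle genes) and TGATGCA (part of the amino acid response element bound by ATF4). Matches of different motifs may overlap each other. E2F letters were in 12 of the 42 windows of lower genes (28.6%), in 3 of the 17 windows of the other genes (17.6%), in 18.8% of windows of all genes tested and in 13.0% of all windows. For the E-box these shares were 21.4%, 11.8%, 9.7% and 7.3%, and for CCAAT they were 52.4%, 23.5%, 34.7% and 34.6%. The E-box windows of lower genes included overlapping ones of MTHFD1L and those of PPAT and PAICS. Counted by gene, matches were in 11 (E2F), 7 (E-box) and 16 (CCAAT) of the 28 lower genes with a window. Of all 40 genes with a window, they were in 13, 9 and 19. Genes with several windows have more places for a match. No count by gene was made over all genes tested, so these numbers cannot be set beside the shares of windows. The CHR letters were in 9.5% of the windows of lower genes and in 10.5% of those of all genes tested. The amino acid response letters were in 4 of the 42 windows of lower genes (9.5%), of which 3 were overlapping windows of MTHFD1L and 1 was of PHGDH, in 0 of the 17 windows of the other genes and in 1.5% of windows of all genes tested. These counts describe letters, not sites, and no test was made of them.

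The upstream stretches below are those of the 3 lowest genes that met the following rule. In the 250 bases before the start, the longest run outside annotated exons of coding genes was searched. It had to be at least 100 bases long and hold an E2F or E-box match, so genes with a shorter run were passed over. Capitals mark every match of the letters above, and each stretch is on the plus strand, 5′ to 3′, ending at the base before the RefSeq start (GRCh38.p14). They lie at chr18:657403-657652 for TYMS, chr11:4094435-4094684 for RRM1 and chr9:78296875-78297124 for PSAT1. TYMS held a single E2F match, RRM1 1 E2F, 1 CCAAT and 1 CHR match, and PSAT1 2 overlapping E2F matches and 3 CCAAT matches.
TYMS: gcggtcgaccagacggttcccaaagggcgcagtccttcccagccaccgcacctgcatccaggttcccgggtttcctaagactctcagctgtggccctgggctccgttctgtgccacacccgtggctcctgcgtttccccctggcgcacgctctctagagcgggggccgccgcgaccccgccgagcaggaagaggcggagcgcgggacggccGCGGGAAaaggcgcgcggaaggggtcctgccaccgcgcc
RRM1: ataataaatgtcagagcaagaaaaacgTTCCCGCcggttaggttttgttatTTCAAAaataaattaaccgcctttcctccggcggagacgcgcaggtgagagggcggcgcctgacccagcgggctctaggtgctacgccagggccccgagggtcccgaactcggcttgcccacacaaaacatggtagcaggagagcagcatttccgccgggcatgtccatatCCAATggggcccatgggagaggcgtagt
PSAT1: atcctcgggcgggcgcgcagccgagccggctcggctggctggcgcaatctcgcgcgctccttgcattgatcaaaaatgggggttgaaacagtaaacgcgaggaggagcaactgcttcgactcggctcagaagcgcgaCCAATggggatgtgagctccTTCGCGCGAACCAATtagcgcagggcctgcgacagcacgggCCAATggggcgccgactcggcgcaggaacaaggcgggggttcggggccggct

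Among the kinases that salvage deoxynucleosides, the cytosolic and mitochondrial thymidine kinases moved in opposite directions. TK1, the cytosolic enzyme of S phase, had 85.3 and 80.8 TPM in NC and 40.2 and 42.2 TPM in sh-ANP32B (-1.0, adjusted p = 2.11e-04). TK2, the mitochondrial enzyme that cells use outside S phase, had 5.77 and 5.72 TPM against 11.1 and 13.7 TPM (0.99, adjusted p = 0.00319, standard error 0.14). It remained well below TK1 in both groups on this length-scaled measure. TK2 shares 457 exonic bases on the same strand with ENSG00000260851, a coding gene that was not among the genes used. DCK, which activates deoxycytidine and the leukemia drug cytarabine, stayed within the fold limit, with 80.7 and 79.9 TPM against 62.3 and 61.6 TPM (-0.37, adjusted p = 0.00208).

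Purine salvage and breakdown held the gene with the highest fold change of the module. ADA2, a secreted adenosine deaminase known from monocytes and macrophages, had 99.3 and 104 TPM in NC and 316 and 330.3 TPM in sh-ANP32B, a log2 fold change of 1.66 (adjusted p = 6.16e-05, standard error 0.046). ADA, the intracellular adenosine deaminase, was lower, with 129 and 125 TPM against 83.2 and 81.5 TPM (-0.62, adjusted p = 3.40e-04). HPRT1, which salvages hypoxanthine and guanine, was called lower, with 95.3 and 98.1 TPM against 51.2 and 60.0 TPM (-0.79, adjusted p = 0.00110). APRT, which salvages adenine, had 271 and 264 TPM against 252 and 257 TPM (-0.07, adjusted p = 0.161), and PNP, purine nucleoside phosphorylase, had 168 and 164 TPM against 145 and 138 TPM (-0.23, adjusted p = 0.00940). The summed TPM of these 5 genes was 763 and 756 in NC and 847 and 867 in sh-ANP32B, a rise carried by ADA2, since the other 4 genes had lower values and the median log2 fold change of the list was -0.23.

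Enzymes that exist as paired isozymes were compared within each library, since the ratio of 2 genes in the same library does not depend on how that library was scaled, apart from the pseudocount. The values are log2 ratios of TPM + 1. For ADA over ADA2, the ratio was 0.38 and 0.27 in NC and -1.91 and -2.01 in sh-ANP32B, a difference of -2.28. For TK1 over TK2 it was 3.67 and 3.61 against 1.76 and 1.55, a difference of -1.98. Both pairs thus shifted towards ADA2 and TK2, and for the deaminases the order of the levels turned over. For RRM2 over RRM2B the ratio was 2.82 and 2.95 against 1.94 and 2.20, a difference of -0.81, and for IMPDH1 over IMPDH2 it was -1.39 and -1.56 against -0.83 and -0.97, a difference of 0.58. The cytosolic MTHFD1 over the mitochondrial MTHFD1L had 0.16 and 0.20 against -0.20 and -0.20, so their order turned over too, by -0.38. The remaining pairs shifted less, by -0.16 for SHMT1 over SHMT2, by -0.13 for PRPS1 over PRPS2 and by -0.14 for NME1 over NME2. With 1 library left out, the shift of PRPS1 over PRPS2 was -0.08 without the first NC library and -0.06 without the second sh-ANP32B library, and that of NME1 over NME2 was -0.07 without the first NC library and -0.09 without the first sh-ANP32B library. The groups did not overlap in any of the 8 pairs, but the smallest two-sided p that an exact permutation test can give with 2 libraries against 2 is 0.333, which is what each pair had.

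**Figure D4:**
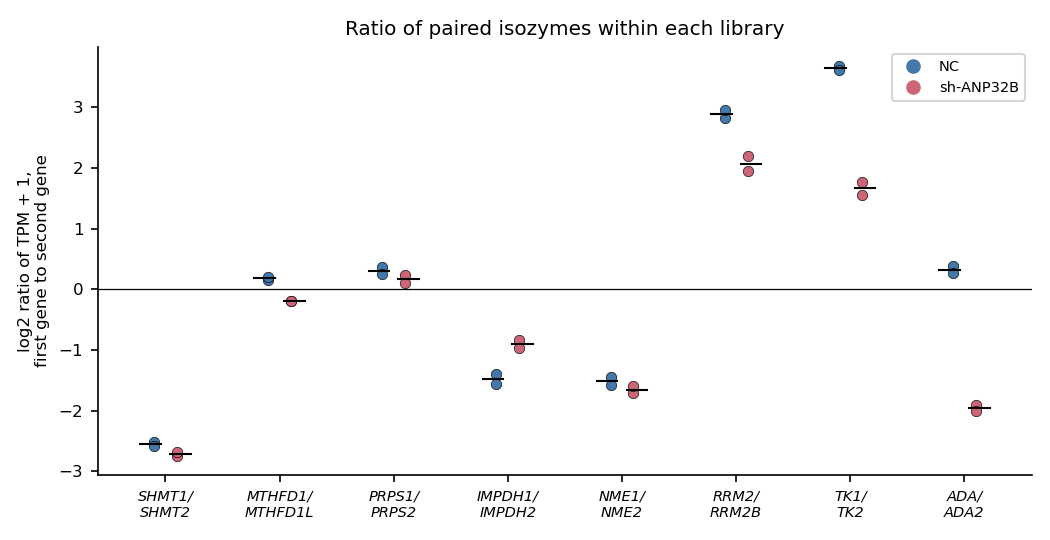
Log2 ratio of TPM + 1 between the isozymes of 8 pairs in each library, with short lines at the group means. The ratio of ADA to ADA2 crosses 0 between the groups, and that of TK1 to TK2 falls from 3.64 to 1.66.

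Other genes of the same pathways were taken from lists drawn up by function. Of 16 further folate and methionine cycle genes listed, 15 were tested, of which 3 were called lower and 2 higher (20% and 13.3%). Over all genes tested, these shares were 10.1% and 17.9%. The median log2 fold change of the 15 genes was -0.09. This median ranged from -0.20 to -0.08 with 1 library left out, being -0.20 without the first sh-ANP32B library and -0.14 without the first NC library, and was -0.18 with median-of-ratios scaling and -0.23 after quantile normalization. MTHFS, which returns a stored folate to the pool, had 35.4 and 35.5 TPM in NC and 24.3 and 21.1 TPM in sh-ANP32B (-0.63, adjusted p = 0.00286). CBS, which takes homocysteine out of the methionine cycle, had 45.5 and 50.7 TPM against 30.1 and 32.1 TPM (-0.61, adjusted p = 0.00213). In the other direction, AMT, of the glycine cleavage system, had 20.2 and 20.6 TPM against 31.7 and 30.1 TPM (0.57), and fell within the limit, at 0.48, with median-of-ratios scaling. AMT shares 3555 of its 5675 exonic bases on the same strand with ENSG00000283189, a coding gene that was not among the genes used. It shares a further 353 with NICN1 on the same strand, which had 24.5 and 25.9 TPM against 33.9 and 32.2 TPM.

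Among 41 further genes of nucleotide salvage, phosphorylation and breakdown, 5 were called lower and 7 higher (12.2% and 17.1%), close to the shares of 10.1% and 17.9% over all genes tested. On the higher side, TYMP, thymidine phosphorylase, had 29.9 and 30.8 TPM in NC and 94.6 and 92.9 TPM in sh-ANP32B (1.59, adjusted p = 6.76e-05), and shares 323 exonic bases with ODF3B on the same strand. CDA, cytidine deaminase, which inactivates cytarabine, had 48.0 and 51.9 TPM against 132 and 143 TPM (1.44, adjusted p = 1.17e-04). DPYD, which degrades uracil and thymine, had 8.67 and 7.46 TPM against 15.6 and 18.1 TPM (0.97, adjusted p = 0.00237), and UPP1, uridine phosphorylase, had 16.6 and 15.1 TPM against 26.9 and 28.4 TPM (0.76, adjusted p = 0.00144). The other 3 higher genes, AMPD3, NT5C2 and ADAL, had log2 fold changes of 0.69, 0.56 and 0.51 and are named because so few remained, after their values were seen. On the lower side, SLC29A1, the equilibrative nucleoside transporter that also carries cytarabine, had 287 and 289 TPM against 141 and 139 TPM (-1.03, adjusted p = 8.26e-05). UCK2, a uridine-cytidine kinase, had a log2 fold change of -0.72, NUDT1, which removes oxidised nucleotides, of -0.70, and NT5C, a nucleotidase, of -0.65.

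**Figure D5:**
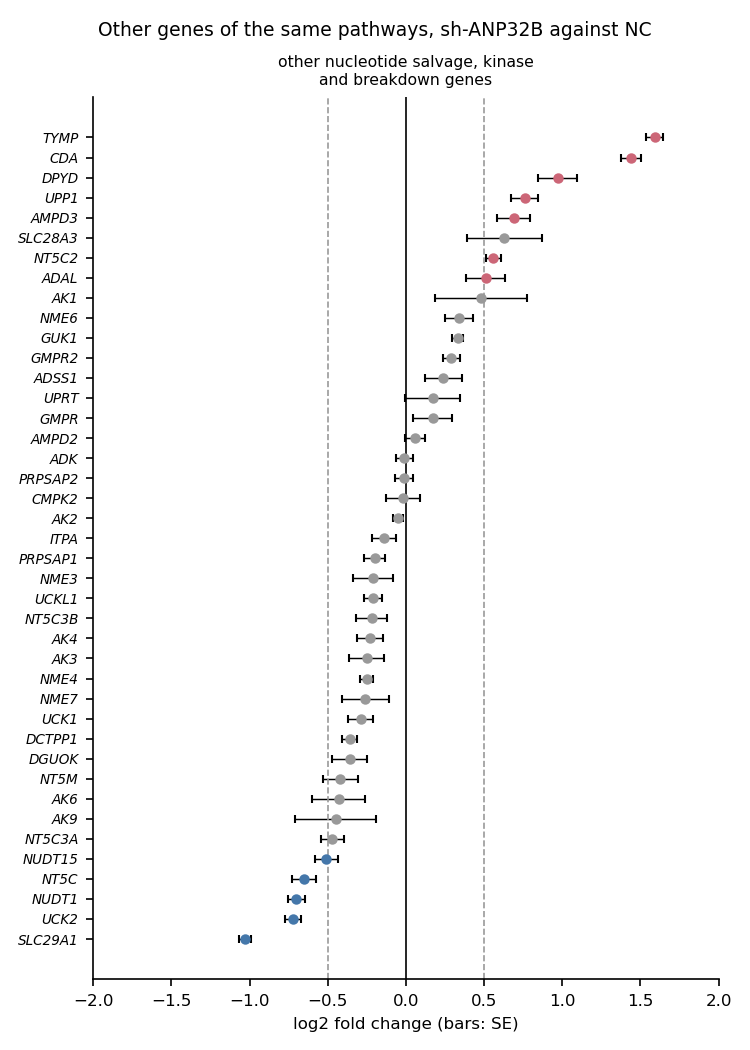
Log2 fold change with standard error of the 41 further genes of nucleotide salvage, phosphorylation and breakdown, sh-ANP32B against NC, blue for called lower, red for called higher and gray for not called, with dashed lines at 0.5 in both directions. TYMP lies highest at 1.59 and SLC29A1 lowest at -1.03.

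Replication markers were lower, as most of the module was, while most of the listed monocyte markers were higher. All 12 genes of a list of S-phase replication genes (PCNA, MCM2 to MCM7, CDC45 and the GINS genes) were called lower, beside 10.1% of all genes tested. Their median log2 fold change was -1.08, and their summed TPM was 2028 to 2036 in NC and 903 to 922 in sh-ANP32B. Of 10 monocyte and macrophage markers, 7 were listed and 6 were called higher (85.7%), beside 17.9% of all genes tested. The summed TPM of the 7 was 626 to 633 in NC and 6225 to 6269 in sh-ANP32B, most of it from LYZ. CD14, CD163 and MRC1, defining markers of this list, were not among the genes used. The part of either in the changes of the nucleotide genes was not tested.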

How the data were processed

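Total RNA of MV4-11 cells was sequenced by the authors, with 2 NC and 2 sh-ANP32B libraries (TruSeq RNA kit). Per the labels, reads were aligned to hg38 with HISAT2 (2.0.5). The authors deposited a single TPM value per gene and library. The unit was read from the values, which sum to between 997271 and 998546 in each library. The quantifier, the annotation and the handling of strand are not given in the sources used here. Identifiers were matched to GENCODE symbols, and 14961 of 18885 had one. Listed genes have a mean of at least 0.50 TPM.

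Groups came from the sample titles. limma (3.58.1, R 4.3.3; lmFit and eBayes with a trend) was run on log2(TPM + 1) for genes that reached 1 TPM in 2 or more libraries, with Benjamini-Hochberg adjustment over all 16937, and was tested on simulated data. The study used DESeq2, which needs counts, so its fold limit of 0.5 was kept and its test was not. The members and lists were chosen with earlier results of these data known. Every member is named, as are the 4 lowest and 4 highest called genes of each further pathway list, apart from some genes that are not reported here. The printed stretches were narrowed, after the data were seen, to E2F or E-box matches outside coding exons, and the PPAT-PAICS stretch was added then. Sequences and windows came from RefSeq (GRCh38.p14) and exons from GENCODE v44. Same-numbered libraries did not deviate together (correlation -0.023), so no block was used. Python 3.11.15 with pandas 2.3.3, scipy 1.17.1 and matplotlib 3.10.9 made tables and plots. Alternatives covered scaling, filters, pseudocount, call limits, the block and each library left out. Kasumi-1 and CUT&Tag data were not analysed here.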

Additional observations from a re-analysis of the deposited data

How the results depend on the processing

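The 34 called members kept their direction under all 12 alternatives of scaling, filter, pseudocount, trend, block and left-out library (408 values), and 406 of these kept the call, the exceptions being CMPK1 and PFAS as given above. In a paired fit, which took the replicate number as a block, 30 members were lower and 4 higher, as without it, and over all genes 1671 were lower and 2853 higher in place of 1712 and 3024. Libraries left out in turn gave 29 to 30 lower members and 4 higher, and a member median of -0.67 to -0.63. The treat test against the fold limit left 16 lower and 2 higher members, 481 and 950 genes, and 2 and 3 further pathway genes. Without a fold limit, 3342 genes were lower and 4405 higher, and 18 and 14 further pathway genes were lower and higher. The member median was -0.66 with a pseudocount of 0.1, -0.73 with median-of-ratios scaling and -0.60 when rescaled without mitochondrial and top genes. Scaling moved the middle value over all genes, a log2 fold change of 0.08 as deposited, -0.04 after quantile normalization and 0.11 after rescaling. Lower genes made up 36.1% of the calls as deposited and 31.5% after this rescaling. Their share was 48.9% with median-of-ratios scaling and 50.2% after quantile normalization. Genes near 0 changed sign, with RRM2B at -0.01 and DCTD at -0.08 under median-of-ratios scaling, APRT at 0.01 under quantile normalization, and DCTD at -0.05 and -0.01 without the second NC or the first sh-ANP32B library. The cause was not tested. The depth behind the TPM is unknown, so counting error could not be given for low genes such as SAMHD1 and TK2.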
